A study of Mus musculus with 4 samples.

Results

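Procr, Tek, Esam, Robo4, Fgd5, Pdzk1ip1 and Clec1a are 7 genes used to mark or sort blood stem cells. They were found by symbol in the deposited feature lists, where each matched 1 of 32285 gene features. Most encode cell surface proteins. Fgd5 is an intracellular protein, so the group is better called stem cell marker genes than receptors alone.

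The study profiled CD45.2+ Kit+ mouse bone marrow taken 10 weeks post-transplantation. RNA and barcoded antibodies were read from the same single cells. There were 4 groups of 1 library each: a control, an Mll3-deleted library, an Mll4-deleted library and an Mll3/4-deleted library, in which both genes are labelled as deleted. All 4 share the transplantation and the sort. Mll3 and Mll4 are the histone methyltransferases encoded by Kmt2c and Kmt2d. The labels used here do not name the deleter allele, strain, sex, donors or number of animals, nor what the 2 hashtag antibodies mark. With 1 library per group there is no replicate error and no test. Every interval below is a 95% interval that covers counting error alone, so a comparison sets 1 library against another.

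Blood stem cells are rare bone marrow cells that can rebuild all blood lineages after transplantation. They share several surface proteins with the endothelium that lines vessels. Procr encodes CD201, the endothelial protein C receptor. Tek encodes Tie2, the receptor tyrosine kinase for angiopoietins. Robo4 is a roundabout family receptor known for its part in anchoring stem cells in the marrow. Esam is an adhesion molecule of the immunoglobulin superfamily, which platelets and megakaryocytes also carry. Fgd5 is an exchange factor for the small GTPase Cdc42. Pdzk1ip1 is a small membrane protein also called MAP17, and Clec1a is a C-type lectin-like receptor.

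The regions just upstream of these genes are shown because all 7 members were lower in the Mll3/4-labelled library, though they differed in the other comparisons. The RefSeq promoter table on GRCm38.p6 matched 5 of the 7 members, and Esam and Clec1a are named only. Each sequence below runs 5′ to 3′ on the strand of its gene, 150 bases long from base 250 before the start annotated in RefSeq. The windows of Procr, Robo4 and Fgd5 begin closer than that to the GENCODE starts given further below. Capitals mark matches, searched on both strands, to GATAA for the factors of the GATA family, to AGGAAG for those of the ETS family and to TGTGGT for those of the RUNX family. No motif overlaps another here.
Procr, at chr2:155750967-155751116 on the plus strand: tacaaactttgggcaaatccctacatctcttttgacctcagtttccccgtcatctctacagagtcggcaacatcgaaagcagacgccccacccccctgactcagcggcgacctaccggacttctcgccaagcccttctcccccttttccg
Tek, at chr4:94739039-94739188 on the plus strand: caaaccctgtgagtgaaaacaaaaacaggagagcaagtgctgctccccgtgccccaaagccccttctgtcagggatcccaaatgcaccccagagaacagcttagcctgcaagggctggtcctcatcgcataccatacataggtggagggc
Robo4, at chr9:37401722-37401871 on the plus strand: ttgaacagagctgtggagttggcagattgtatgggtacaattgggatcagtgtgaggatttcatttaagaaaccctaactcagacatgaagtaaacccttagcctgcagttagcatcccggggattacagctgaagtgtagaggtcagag
Fgd5, at chr6:91978715-91978864 on the plus strand: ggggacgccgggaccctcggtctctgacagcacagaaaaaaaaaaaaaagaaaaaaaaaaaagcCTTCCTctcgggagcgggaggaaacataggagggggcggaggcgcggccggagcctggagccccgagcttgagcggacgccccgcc
Pdzk1ip1, at chr4:115088458-115088607 on the plus strand: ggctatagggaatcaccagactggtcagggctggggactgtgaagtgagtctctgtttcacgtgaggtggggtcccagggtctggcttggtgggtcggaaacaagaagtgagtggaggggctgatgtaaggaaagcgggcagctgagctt

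Fgd5 held 1 match, to AGGAAG read on the other strand, and the other 4 windows held none of the 3 motifs. Over 32851 RefSeq promoters, the same 150-base window held GATAA in 15.6%, AGGAAG in 18.1% and TGTGGT in 8.77%. Base composition differed among the members, from 45.3% G and C in Robo4 to 61.3% in Fgd5.

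The genes lie on 4 chromosomes of GRCm38. Procr spans chr2:155751117-155755471, Tek chr4:94739289-94874976, Pdzk1ip1 chr4:115088708-115093899, Fgd5 chr6:91978878-92076004, Clec1a chr6:129424772-129452000, Robo4 chr9:37401897-37415115 and Esam chr9:37528078-37538319, per GENCODE M21. Robo4 and Esam are 113 kb apart. Fgd5 overlaps the annotated genes Gm44095, on the same strand, and 4930466I24Rik, on the other strand. Reads from bases shared with Gm44095 cannot be assigned with certainty. No annotated gene overlaps the other members.

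The libraries differed in depth and make-up. After filtering, 7146 control, 5860 Mll3-labelled, 5350 Mll4-labelled and 6917 Mll3/4-labelled cells were kept, with medians of 15754, 16963.5, 5142 and 9965 UMIs per cell. Between 0.0434% and 0.256% of a library's kept barcodes also occurred in another library. Kmt2c was at 47.9 CPM (UMIs scaled to a common total of gene UMIs over the summed cells) in control, 27.2 in the Mll3-labelled, 59.2 in the Mll4-labelled and 34.8 in the Mll3/4-labelled library. Kmt2d lay between 21.6 and 25.8 CPM in all 4, at 24.7 CPM in the Mll3/4-labelled library, so its level did not follow the Mll4 label. A 3′ count can miss the loss of an internal exon, and the libraries are therefore named by their labels throughout. Xist was at 0.519 CPM in the Mll4-labelled library and between 955 and 1839 CPM in the other 3. Sex, depth and the Mll4 label cannot be told apart in that library. Of the Mll3/4-labelled cells 98.8% were B-cell progenitor-like, against 6.59% in control. Cdh5 and Cldn5, which define endothelium, had 0 UMIs in the Mll4- and Mll3/4-labelled libraries. No cell of any library had 3 or more of the 7 endothelial markers, whose summed level ran from 3.4 to 4.24 CPM across libraries.

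Over all kept cells, every member was lower in the Mll3/4-labelled library than in the other 3 libraries. The other libraries differed from control by less, and in both directions. A member was called where it had at least 20 UMIs in either library and differed by 2-fold or more. All 7 members passed that count minimum in each comparison over all kept cells. A level over all cells cannot tell fewer cells of a type from less RNA per cell.

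**Figure D1:**
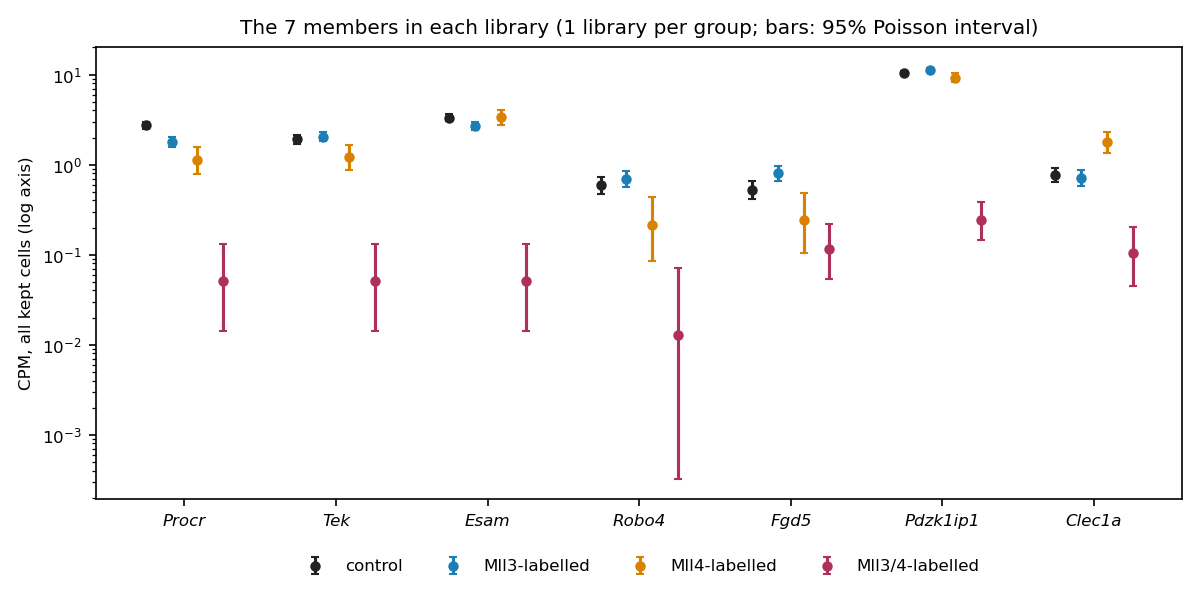
Level of each of the 7 members over all kept cells of each library in CPM, on a log axis, with 95% Poisson intervals; 1 library per group. The Mll3/4-labelled points lie lowest for every member, from 0.0129 CPM for Robo4 to 0.245 CPM for Pdzk1ip1.

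Procr gave 418 UMIs in control, 242 in the Mll3-labelled, 37 in the Mll4-labelled and 4 in the Mll3/4-labelled library. These are 2.72, 1.78, 1.13 and 0.0515 CPM. The 4 libraries stood in that order and their counting intervals overlapped for no pair. Tek, at 296, 278, 40 and 4 UMIs, was at 1.93, 2.04, 1.22 and 0.0515 CPM. Control and the Mll3-labelled library were alike within counting error for Tek, and the Mll4-labelled library lay below both. Robo4 gave 91, 95, 7 and 1 UMIs, or 0.592, 0.699, 0.214 and 0.0129 CPM.

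Esam gave 508, 363, 110 and 4 UMIs, or 3.31, 2.67, 3.36 and 0.0515 CPM in the control, Mll3-, Mll4- and Mll3/4-labelled libraries. Control and the Mll4-labelled library were alike within counting error. Fgd5 gave 81, 110, 8 and 9 UMIs, or 0.527, 0.809, 0.244 and 0.116 CPM. It stood highest in the Mll3-labelled library. Pdzk1ip1 gave 1588, 1548, 302 and 19 UMIs, or 10.3, 11.4, 9.21 and 0.245 CPM. Clec1a gave 119, 97, 58 and 8 UMIs, or 0.775, 0.713, 1.77 and 0.103 CPM, and stood highest in the Mll4-labelled library.

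Cells were then grouped to ask where each gene was expressed. The clustering left the 7 members out, so that their levels by cluster were not used to build the clusters. HSC/MPP-like cells, named for stem and multipotent progenitor markers, came from 2 clusters. The Mecom cluster has Ly6a, Hlf and Mecom among its 10 leading genes, and the Cd34 cluster has Cd34, Hlf and Flt3 among them. A further cluster led by Prg2, Ccl9 and Cd34, and called here the Flt3 cluster, stayed unnamed. It held 921 control, 577 Mll3-labelled, 216 Mll4-labelled and 4 Mll3/4-labelled cells.

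In control, every member was higher in the Mecom cluster than in the Cd34 cluster, though for Tek, at 6.25 and 3.67 CPM, the counting intervals overlapped. The 7 genes then parted in the other lineages. Procr was at 60.1 CPM in the 388 control cells of the Mecom cluster, 9.32 in the 291 cells of the Cd34 cluster and 5.7 in the Flt3 cluster. It was at 0.356 CPM in megakaryocyte-like cells and had 0 UMIs in 1621 erythroid progenitor-like cells. The HSC/MPP-like class held 76.8% of all control Procr UMIs, the Flt3 cluster 19.4%.

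Fgd5 was at 13.4 CPM in the Mecom cluster, 1.38 in the Cd34 cluster, 0.633 in the Flt3 cluster and 0.356 in megakaryocyte-like cells. The HSC/MPP-like class held 82.7% of its control UMIs and the Flt3 cluster 11.1%. Robo4 was at 9.95, 1.99, 1.2 and 0.855 CPM in those 4 groups, with 61.5% of its UMIs in the class. These 3 genes had the largest shares of control UMIs in the Mecom cluster among the members, from 47.3% to 71.6%, in 5.43% of cells.

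The other 4 members were shared with megakaryocyte-like cells, the platelet-forming lineage. Esam was at 33.1 CPM in the Mecom cluster and 15.6 CPM in megakaryocyte-like cells, which held 43.1% of its control UMIs. Pdzk1ip1 was at 56.4 CPM in the Mecom cluster. It was at 61.0 CPM in 1 megakaryocyte-like cluster of 479 control cells and 35.3 CPM in the other, of 302 cells. Clec1a was at 9.95 CPM in the Mecom cluster and 3.06 CPM in megakaryocyte-like cells.

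In control Tek ran the other way. It was at 6.25 CPM in the Mecom cluster and 11.3 CPM in megakaryocyte-like cells, which held 53.7% of its UMIs, and the counting intervals did not overlap. That order did not hold in the Mll3-labelled library, where Tek CPM in the Mecom cluster was not below that in megakaryocyte-like cells. Tek and Pdzk1ip1 also reached the erythroid and basophil/mast branches. In control erythroid progenitor-like cells Tek was at 0.761 CPM and Pdzk1ip1 at 5.56 CPM. In control basophil/mast-like cells Tek was at 4.39 CPM from 5 UMIs and Pdzk1ip1 at 42.2 CPM from 48. Clec1a, Esam, Fgd5 and Robo4 had 0 UMIs in those 111 cells.

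**Figure D2:**
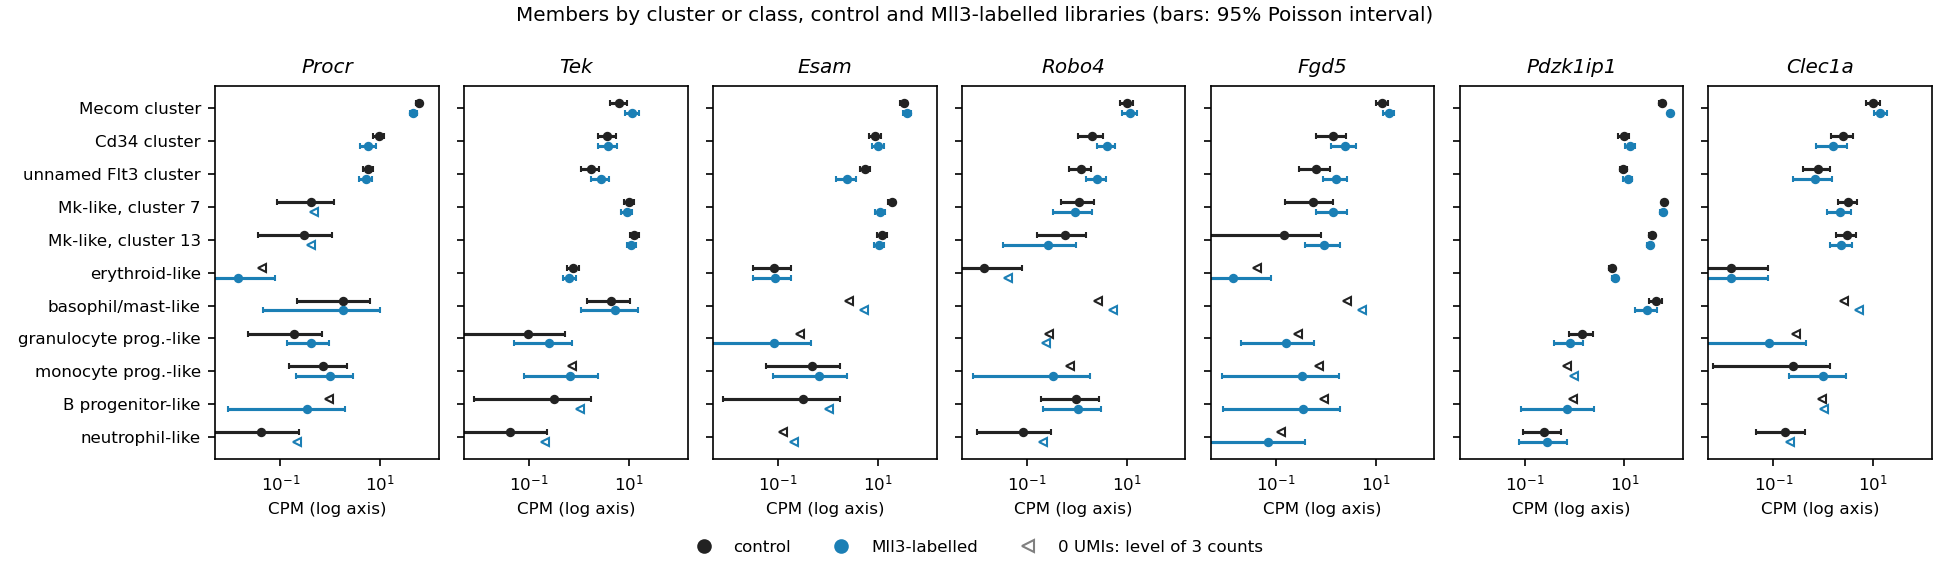
Level of each member in CPM, on a log axis, by cluster or class in the control and Mll3-labelled libraries, with 95% Poisson intervals; open triangles mark 0 UMIs, placed at the level of 3 counts. Procr, Robo4 and Fgd5 stand highest in the Mecom cluster, whereas Tek and Pdzk1ip1 stay high in megakaryocyte-like clusters.

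The share of cells with at least 1 UMI gave the same picture at low detection. Procr was found in 43.8% of control cells in the Mecom cluster, and in 19.4% once each cell was thinned to 4000 UMIs. In neutrophil-like cells, which should lack these genes and had a higher median depth, 0.0561% of control cells had a Procr UMI. The median depths were 10860 UMIs in the Mecom cluster and 13536.5 in neutrophil-like cells. In the Mecom cluster 80.2% of control cells had a UMI of at least 1 member and 46.9% of at least 2. The highest number in 1 control cell was 6 of the 7. After thinning, 51.6% had at least 1 and 13.99% at least 2. Of neutrophil-like control cells, 0.786% had at least 1 and none of 1782 had 2.

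Across the 31 units of class and library with at least 50 cells, the closest pair of members was Robo4 and Fgd5, with Pearson r = 0.935 on log2(CPM + 1). Tek and Pdzk1ip1 followed at 0.90. The lowest value was 0.428, between Tek and Clec1a. Units share libraries and depth, so these values are descriptions. Among 12848 genes with at least 200 UMIs, those closest to Procr were Epb41l3 (r = 0.903), Paqr5 (0.89) and Tnip3 (0.836). Lhcgr, Nkx2-3 and Col4a2 were closest to Fgd5, and Gm5111, 2210408F21Rik and Nkx2-3 to Robo4. Gp9 and Itga2b, which encode platelet glycoproteins, were among the 3 genes closest to Tek and to Pdzk1ip1, respectively. Trim47 was among the closest 3 of both. Tgm2, Rasgef1b and Npdc1 were closest to Clec1a, at r between 0.836 and 0.862.

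The antibody against CD201 was read beside Procr in the same cells. In the Mecom cluster the mean CD201 count per cell was 22.2 ± 28.3 in 388 control cells, 20.3 ± 31.4 in 294 Mll3-labelled cells, 30.8 ± 31.3 in 26 Mll4-labelled cells and 20.8 ± 29.8 in 6 Mll3/4-labelled cells, where ± is the SD over cells. In neutrophil-like cells the means were 2.55, 2.88, 4.95 and 2.83 counts in that order, which gives the background. The medians in the Mecom cluster were 12, 10, 17 and 8.5 counts, so a few cells with high counts raised the means. Of the 6 Mll3/4-labelled cells, the 3 with a Procr UMI had a mean of 37.0 counts and the 3 without one 4.67. Dendritic cell-like cells of the Mll4-labelled library also had a raised mean, of 16.7 counts in 107 cells, with Procr at 11.98 CPM from 4 UMIs. Per 1000 surface antibody counts they had 6.21 CD201 counts. In that library the Mecom cluster had 32.1, B-cell progenitor-like cells without Procr UMIs 4.95 and neutrophil-like cells 2.73. In the Cd34 cluster the mean was 4.17 counts in control and Procr was at 9.32 CPM.

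Within the Mecom cluster, control cells with a Procr UMI had a mean of 30.1 CD201 counts and a median of 18. Cells without one had 16.1 and 9. In the Mll3-labelled library the means were 34.4 and 13.01. The median UMI depth of the control cells with and without a Procr UMI was 11282.5 and 10713.5. RNA and protein thus went together within the cluster, though many cells with no Procr UMI carried CD201. The relation was weaker between classes. Over the 31 units of class and library with at least 50 cells, Procr CPM and mean CD201 count had a Spearman correlation of 0.24. On the log2 scale Pearson r was 0.62. Without the HSC/MPP-like units, over 28 units, these were -0.03 and 0.34.

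CD117 (Kit) and Sca1 (Ly6a) antibodies mark the stem and progenitor compartment. Control CD117+Sca1+ cells were binned by CD201 count, a comparison chosen after the data had been seen. Procr rose from 10.3 CPM at 0 to 4 counts through 17.3 at 5 to 9 and 40.1 at 10 to 19 to 67.3 CPM at 20 counts or more. Fgd5 went from 1.87 through 2.58 and 8.47 to 15.4 CPM over the same bins. Tek stayed between 4.29 and 6.21 CPM, with overlapping intervals. Esam went from 18.8 to 27.7 CPM, with overlapping intervals, and Pdzk1ip1 from 28.2 to 49.8 CPM. Robo4, at 3.17, 4.43, 9.60 and 6.68 CPM, did not rise at every step. Nor did Clec1a, at 5.78, 3.69, 4.52 and 10.8 CPM. The share of HSC/MPP-like cells in the bins ran from 37.7% to 82.9%, and its part in these levels was not tested.

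**Figure D3:**
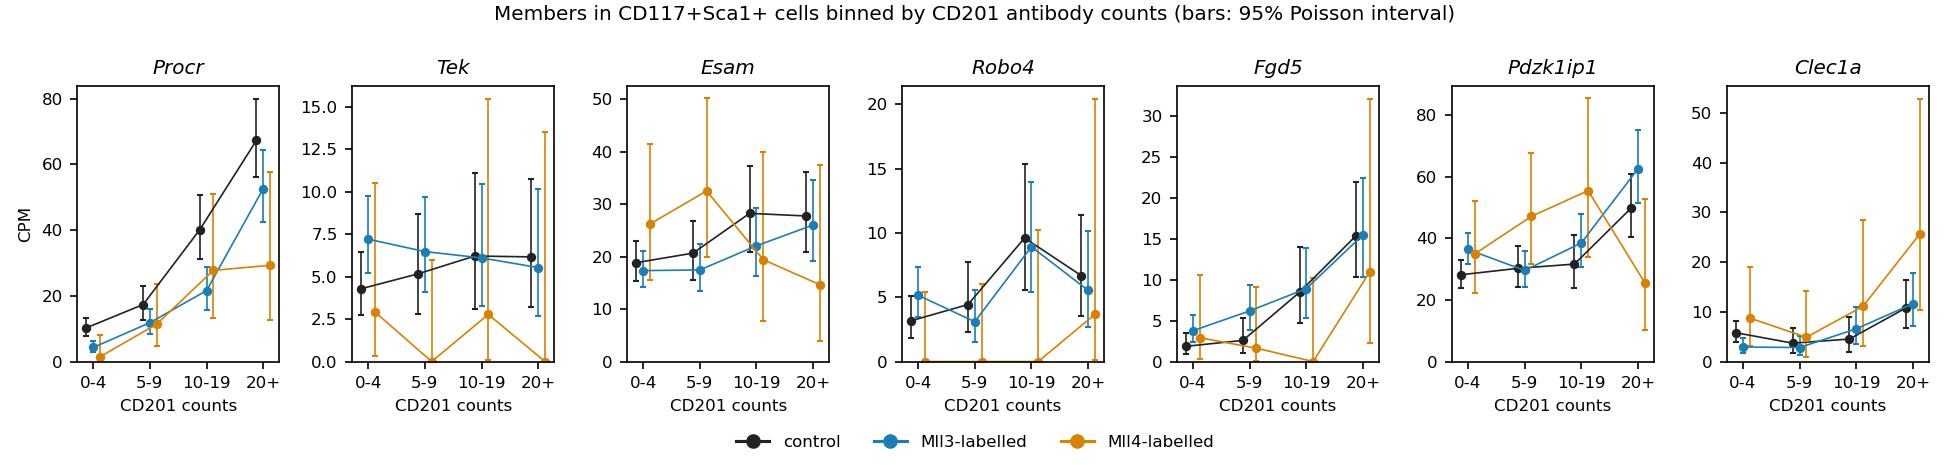
Level of each member in CPM in CD117+Sca1+ cells binned by CD201 antibody count, in the control, Mll3- and Mll4-labelled libraries, with 95% Poisson intervals. Procr and Fgd5 climb with CD201 in the control and Mll3-labelled libraries, whereas Tek is flat within its intervals.

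In the Mll3-labelled library Procr was lower than in control in the Mecom cluster and the Cd34 cluster, by less than 2-fold, and in each CD117+Sca1+ gate. In the Flt3 cluster it was at 5.70 and 5.20 CPM, with an interval of the log2 ratio from -0.69 to 0.41. In the Mecom cluster the other 6 members were above control, 4 of them within counting error, and no member passed 2-fold, where 2.09% of genes were lower and 0.739% higher. None of the 7 members passed 2-fold in either direction, over all kept cells or in HSC/MPP-like cells. The background was 3.4% of genes lower and 1.58% higher over all kept cells, and 2.13% lower and 0.947% higher in HSC/MPP-like cells. The HSC/MPP-like class held 679 control cells, 388 of them in the Mecom cluster, and 562 Mll3-labelled cells, 294 of them in that cluster.

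Procr over all kept cells had a log2 ratio to control of -0.61, with an interval from -0.85 to -0.38. It was 29.5 CPM in control against 20.2 CPM in the Mll3-labelled HSC/MPP-like cells, a log2 ratio of -0.55. That ratio was -0.17 at clustering resolution 0.5 and -0.30 with no doublet removal. In the Mecom cluster it was 60.1 against 45.7 CPM, a log2 ratio of -0.40 with an interval from -0.69 to -0.10, and in the Cd34 cluster it was -0.68. At the class mix of control the ratio over all cells was -0.44. The mean CD201 count in the Mecom cluster was 22.2 in control against 20.3 in the Mll3-labelled library, while the CD201 count of the neutrophil-like background was higher in the latter.

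Classical stem cells are sorted by surface proteins as CD117+Sca1+CD150+CD48-. This gate held 240 control and 297 Mll3-labelled cells, of which 180 and 190 were HSC/MPP-like and 53 and 97 megakaryocyte-like. In the gate Procr was at 41.4 CPM in control against 23.5 CPM in the Mll3-labelled library, a log2 ratio of -0.82 with an interval from -1.19 to -0.45. Clec1a was at 15.1 and 8.67 CPM, a log2 ratio of -0.80 with an interval from -1.43 to -0.18. Fgd5 was at 12.4 CPM in both. No member passed 2-fold there, where 2.28% of genes were lower and 1.31% higher. The share of megakaryocyte-like cells differed between the gates, and its part in these ratios was not tested. In CD117+Sca1+ cells binned by CD201 count, Procr was lower than in control in all 4 bins. The intervals did not overlap at 0 to 4 counts, with 10.3 and 4.29 CPM, or at 10 to 19 counts, with 40.1 and 21.6 CPM. They overlapped at 5 to 9 counts, with 17.3 and 11.8 CPM, and at 20 or more, with 67.3 and 52.6 CPM. HSC/MPP-like cells were 37.7% of control and 38.9% of Mll3-labelled cells at 0 to 4 counts, and 55.7% and 54.0% at 5 to 9. They were 80.3% and 65.6% at 10 to 19 counts and 82.9% and 72.9% at 20 or more. The part of this mix in the Procr levels of the bins was not tested.

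The other 3 CD117+Sca1+ gates were read after the data had been seen. In CD150+CD48+ cells, a gate of more restricted progenitors, Procr was at 15.8 CPM from 37 control UMIs and 3.30 CPM from 7 Mll3-labelled UMIs. Its log2 ratio was -2.26, with an interval from -3.67 to -1.08, and Esam had -1.17. Both passed 2-fold lower among 3 members tested, where 5.17% of genes were lower and 0.833% higher. In CD150-CD48- cells Procr was at 56.4 and 25.1 CPM, a log2 ratio of -1.17 with an interval from -1.73 to -0.61. It alone passed 2-fold lower among 3 members tested, where 1.73% of genes were lower and 3.29% higher. In CD150-CD48+ cells the Procr ratio was -0.84 and no member of 4 passed, where 3.11% of genes were lower and 1.02% higher. HSC/MPP-like cells were 54 of 129 control and 24 of 86 Mll3-labelled cells in the CD150+CD48+ gate, and 85 of 95 and 117 of 167 in the CD150-CD48- gate. The part of this mix in the ratios was not tested.

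Tek and Pdzk1ip1 were higher within the Mecom cluster. Tek was at 6.25 CPM in control against 11.5 CPM in the Mll3-labelled library, a log2 ratio of 0.88 with an interval from 0.13 to 1.65. Pdzk1ip1 was at 56.4 and 83.3 CPM, a log2 ratio of 0.56 with an interval from 0.31 to 0.82. In the surface gate the ratios were 0.22 and 0.06, and both intervals held 0. Esam was lower outside the stem cell clusters. In the Flt3 cluster it was at 5.56 CPM in control against 2.37 CPM in the Mll3-labelled library, a log2 ratio of -1.23 with an interval from -1.996 to -0.52. Robo4 went the other way there, at 1.2 and 2.49 CPM, a log2 ratio of 1.06 with an interval from 0.08 to 2.06. These 2 of the 5 members tested passed 2-fold in that cluster, where 1.72% of genes were lower and 0.836% higher. In megakaryocyte-like cells Esam was at 15.6 and 10.7 CPM. There no member of the 4 with enough UMIs passed 2-fold, where 2.35% of genes were lower and 1.22% higher. Fgd5 over all cells was 0.62 higher, with an interval from 0.19 to 1.05.

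In the Mll4-labelled library the members split. Over all kept cells Procr, Robo4 and Fgd5 passed 2-fold lower and Clec1a passed 2-fold higher, against a background of 8.68% of genes lower and 9.67% higher. The log2 ratios to control were -1.27 for Procr, -1.47 for Robo4, -1.11 for Fgd5 and 1.19 for Clec1a. Robo4 and Fgd5 rested on 7 and 8 UMIs. With cells thinned to 2000 UMIs, Clec1a was 0.74 higher and no longer called, and Tek was called lower in place of Fgd5. With the stricter cell filter Fgd5 was at -0.88 and not called. At the class mix of control the log2 ratios were -0.76 for Procr, -0.93 for Fgd5, -1.21 for Robo4, 0.56 for Esam and 1.17 for Clec1a, so Procr and Fgd5 no longer passed 2-fold. The HSC/MPP-like class was 3.48% of cells in this library and 9.5% of control.

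In HSC/MPP-like cells 4 of the 7 members were lower by 2-fold or more, Procr, Tek, Robo4 and Fgd5, and none was higher, where 6.7% of genes were lower and 5.67% higher. Procr was at 29.5 CPM in control against 8.71 CPM in the Mll4-labelled library, a log2 ratio of -1.76. Tek and Robo4 had 2 UMIs each there, with log2 ratios of -1.69 and -1.83 whose intervals held 0, and Fgd5 had 1. With cells thinned to 2000 UMIs no member was called lower, and with another clustering seed Procr and Robo4 alone were. The 2 clusters of the class were filled differently. Of 186 Mll4-labelled cells, 160 lay in the Cd34 cluster and 26 in the Mecom cluster, whereas control had 291 and 388.

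Within the Mecom cluster alone no member was called lower, a comparison chosen after the data had been seen. Procr was at 60.1 CPM in control against 52.5 CPM in the 26 Mll4-labelled cells, from 5 UMIs, with a log2 ratio of -0.20 and an interval from -1.83 to 1.04. Clec1a was at 9.95 and 63.0 CPM there, the latter from 6 UMIs, and Esam at 33.1 and 83.9 CPM, from 8 UMIs. The intervals of the log2 ratio ran from 1.14 to 3.90 and from 0.10 to 2.36. Both passed 2-fold higher, as did 15.4% of genes, while 7.12% were lower. Tek and Robo4 had 0 UMIs in these 26 cells, which allows up to 31.5 CPM, a limit above their control levels. In the Cd34 cluster Procr was at 9.32 and 5.46 CPM, with an interval of the log2 ratio from -2.15 to 0.36. Both intervals held 0 and also the class ratio of -1.76. The part of the cluster mix in the class level was not tested. CD201 in the 26 cells had a mean of 30.8 counts.

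**Figure D4:**
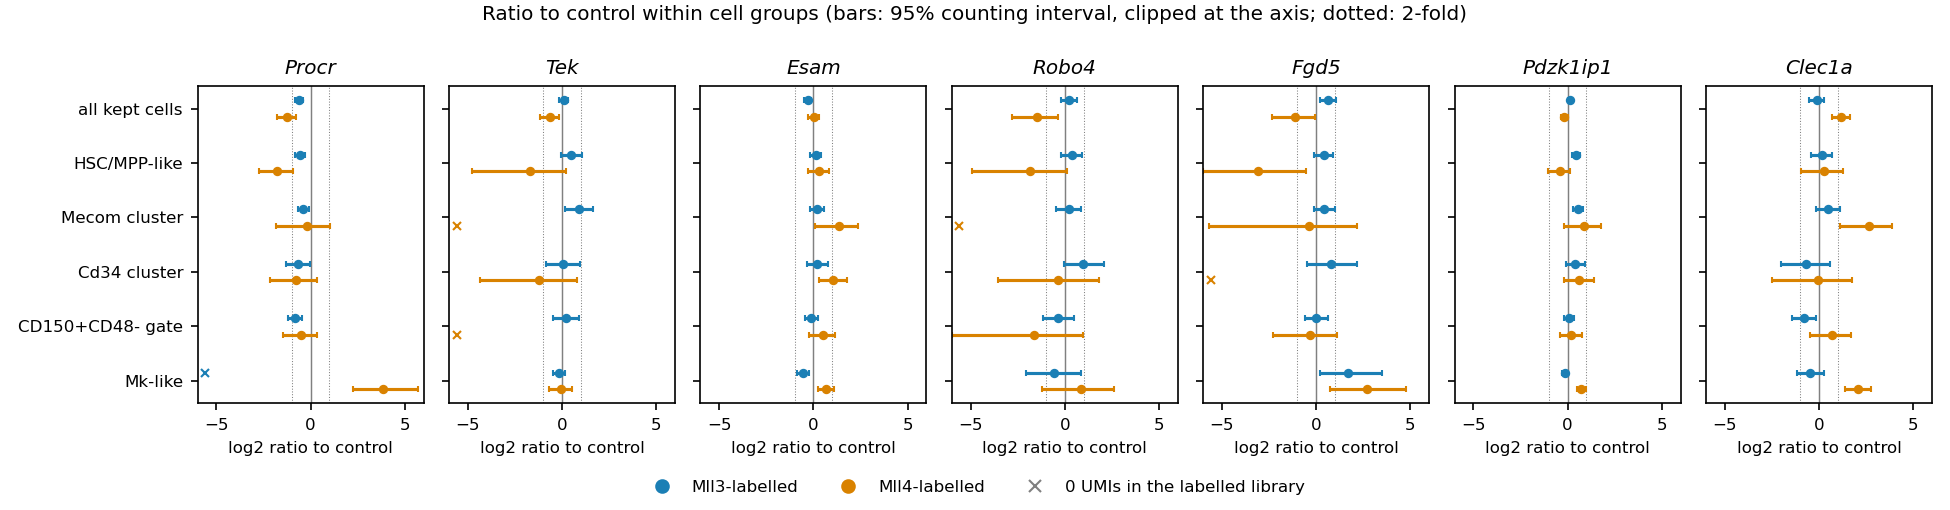
Log2 ratio to control of each member in the Mll3- and Mll4-labelled libraries, by group of cells, with 95% counting intervals clipped at the axis; crosses mark 0 UMIs, placed at the left edge, and dotted lines mark 2-fold. Procr in the Mll3-labelled library lies left of 0 in the 5 plotted groups where it has UMIs, from -0.82 to -0.40, and the Clec1a ratio of the Mll4-labelled library is highest in the Mecom cluster, at 2.66.

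Clec1a was higher in several groups of the Mll4-labelled library. In megakaryocyte-like cells it was at 3.06 CPM in control, then 2.23 CPM in the Mll3-labelled and 12.9 CPM in the Mll4-labelled library. It was there the only member to pass 2-fold among the 4 with enough UMIs, where 6.8% of genes passed higher and 3.84% lower. Dendritic cell-like cells, of which the Mll4-labelled library had 107 and control 2, held 11 of its 58 UMIs, at 32.9 CPM. The ratio at the class mix of control, given above, leaves that class out. The neighbour Clec9a, a lectin receptor of dendritic cells 0.009 kb from Clec1a, was at 0.169 CPM in control against 2.41 CPM in the Mll4-labelled library. Olr1, 33.2 kb on the other side, was at 5.49 and 20.9 CPM. Reads near the ends of 2 genes this close may be assigned to either.

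Megakaryocyte-like cells of the Mll4-labelled library also held stem cell genes. Procr had 13 UMIs in 446 cells there, at 5.09 CPM, against 5 UMIs in 781 control cells, at 0.356 CPM, and 0 UMIs in 668 Mll3-labelled cells. The log2 ratio to control was 3.84, with an interval from 2.26 to 5.68, and the gene was under the count minimum. All 13 UMIs lay in 1 of the 2 megakaryocyte-like clusters, in 10 cells whose median CD201 was 12 counts, against 4 in the cells without a Procr UMI. The means were 24.3 and 5.18 counts, and 20% of the 10 cells had 20 counts or more. Their median depth was 3820.5 UMIs, against 5103 in the others. Hlf was at 32.3 CPM in control and 94.3 in the Mll4-labelled megakaryocyte-like cells, Mecom at 20.4 and 79.4, and Ly6a at 2.21 and 14.1. Esam was at 15.6 and 24.7 CPM and Pdzk1ip1 at 48.6 and 80.6 CPM. Of 27 other stem cell genes tested, 6 passed 2-fold higher there and none lower: Hlf, Mecom, Mycn, Ly6a, Cd34 and Cdkn1c. Over all genes 6.8% passed higher there and 3.84% lower. The CD117+Sca1+CD150+CD48- gate held 77 Mll4-labelled cells, of which 47 were megakaryocyte-like and 22 HSC/MPP-like. In that gate Robo4 alone passed 2-fold lower, from 1 UMI with an interval of the log2 ratio from -6.99 to 0.98, where 7.68% of genes were lower and 7.02% higher.

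In the Mll3/4-labelled library all 7 members were lower by 2-fold or more over all kept cells, against 19.5% of genes lower and 19.8% higher. Procr was 52.8-fold lower than in control, with a log2 ratio of -5.72 and an interval from -7.61 to -4.36. Esam was 64.2-fold lower, Pdzk1ip1 42.3-fold and Tek 37.4-fold. Robo4, with 1 UMI, had a log2 ratio of -5.52 and an interval from -10.84 to -3.01. Clec1a and Fgd5 were 7.52-fold and 4.55-fold lower. The median log2 ratio of the members was -5.40, and that of the 15158 genes tested was -0.02. B-cell progenitor-like cells were 6831 of the 6917 cells, from clusters that held nearly no cell of the other libraries, and only 9 cells were HSC/MPP-like.

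The 86 cells outside the B-cell progenitor-like class carried most of the UMIs of 5 members. All 4 Procr and all 4 Tek UMIs lay in these cells, with 3 of 4 Esam, the 1 Robo4 and 16 of 19 Pdzk1ip1 UMIs. Had each class had its control level, these cells would have held 6.42 Procr, 3.32 Tek, 7.18 Esam, 1.27 Robo4, 1.29 Fgd5, 17.7 Pdzk1ip1 and 1.74 Clec1a UMIs. The Poisson interval of every observed count held that number. For Procr it ran from 1.09 to 10.2 UMIs, and for Pdzk1ip1 from 9.15 to 26.0. This calculation was chosen after the data had been seen, and 86 cells leave room for a difference of several fold. In the 6 cells of the Mecom cluster Procr was at 38.1 CPM from 4 UMIs, in 3 of the 6 cells, and Pdzk1ip1 at 66.7 CPM from 7.

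**Figure D5:**
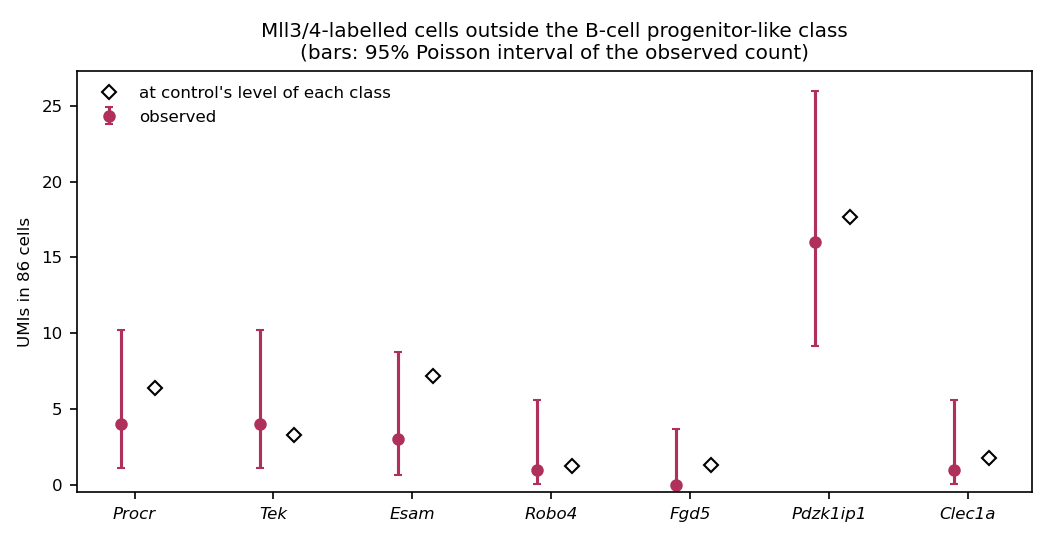
UMIs of each member in the 86 Mll3/4-labelled cells outside the B-cell progenitor-like class, with 95% Poisson intervals, beside the number that control's level in each class would give (diamonds). Every interval holds its diamond, as for Pdzk1ip1 with 16 UMIs beside 17.7.

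Fgd5 and Clec1a were the exceptions within the B-cell progenitor-like class. Of the 9 Fgd5 UMIs of the library all 9 lay there, and of 8 Clec1a UMIs 7 did. They amount to 0.119 and 0.0922 CPM over 75912086 UMIs. Both genes had 0 UMIs in the control cells given this class name, which lay almost all in other clusters and so are not like for like. The 0 UMIs allow up to 0.943 CPM, so no difference could be shown. Procr, Tek and Robo4 had 0 UMIs in these 6831 cells, which allows up to 0.0395 CPM. Robo4 had 3 UMIs in 471 control B-cell progenitor-like cells, at 0.943 CPM.

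Surface gate and RNA class parted in this library. The CD117+Sca1+CD150+CD48- gate held 200 Mll3/4-labelled cells, of which 195 were B-cell progenitor-like and 3 HSC/MPP-like. Procr had 4 UMIs in 3 of the 200 cells, at 1.57 CPM, against 41.4 CPM in the control gate. Clec1a and Fgd5, with 0 UMIs, were at least 12.8-fold and 10.5-fold lower than in the control gate. CD201 had a median of 6 counts in these cells and 9 in control, and 13.5% and 31.7% of the cells had 20 counts or more. Among all CD117+Sca1+ cells, 82 Mll3/4-labelled cells had 20 or more CD201 counts, with Procr at 2.53 CPM. The 140 such control cells had Procr at 67.3 CPM. The intervals, from 0.522 to 7.39 and from 56.3 to 79.8 CPM, did not overlap. HSC/MPP-like cells were 2.44% of the former and 82.9% of the latter. Over whole B-cell progenitor-like classes, whose Procr was at 0 UMIs in both libraries, 1.23% of Mll3/4-labelled and 1.06% of control cells had 20 or more CD201 counts. The classes came almost wholly from different clusters, and these are raw counts. Per 1000 surface antibody counts, CD201 was at 5.85 in the Mll3/4-labelled class and 2.66 in the control class. The part of antibody background in the CD201 counts of Procr-poor cells was not tested.

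The known partners of the members were listed beside them. Of 35 listed genes 34 were in the files. In the Mll3/4-labelled library 12 of 26 tested were lower and 6 higher over all kept cells, where 19.5% of genes were lower and 19.8% higher. Tie1, the receptor related to Tek, was at 3.86 CPM in control against 0.0773 CPM in the Mll3/4-labelled library. Angpt1, which encodes the ligand of Tek, was at 91.4 and 9.58 CPM. F2r, the thrombin receptor that CD201 signalling works through, was at 28.8 and 0.683 CPM. Fgd6, Jam2, Fgd1, Magi1, Robo2 and Smad4 passed 2-fold higher. In the 9 HSC/MPP-like cells of that library Angpt1 was at 342 CPM, against 313 in control. F2r was at 15.8 CPM there from 3 UMIs, against 28.5. In its 6 megakaryocyte-like cells they were at 374 and 169 CPM, against 347 and 153 in control. Tie1 had 1 and 2 UMIs in the 2 groups. The intervals of all these log2 ratios held 0, and the part of the cell mix was not tested. Over all kept cells of the Mll4-labelled library 3 of 25 were lower and 6 higher, beside 8.68% and 9.67% of genes. In the Mll3-labelled library 1 was lower, F3, and none higher, beside 3.4% and 1.58% of genes.

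In HSC/MPP-like cells Dok2, an adaptor that binds activated Tie2, was at 29.6 CPM in control, then 12.7 CPM in the Mll3-labelled and 4.35 CPM in the Mll4-labelled library. It was the 1 partner of 19 tested to pass lower in the Mll3-labelled library there, where 2.13% of genes did. In the Mll4-labelled library 5 of 18 passed lower, where 6.7% of genes did: Dok2, Tie1, Fgd1, Fgd2 and Jam3. The intervals of Fgd1, Fgd2 and Jam3, from 4, 5 and 1 UMIs, held 0. Within the 26 Mll4-labelled cells of the Mecom cluster alone, 0 of 17 partners tested passed lower. There 3 passed higher, Clec2d, Fgd1 and Tgfbr2, where 7.12% of genes were lower and 15.4% higher. The part of the cluster mix in the class levels of the partners was not tested. Tie1 was at 17.9 CPM in control against 5.08 CPM in the Mll4-labelled HSC/MPP-like cells, but at 15.2 and 21.1 CPM in megakaryocyte-like cells.

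Of 27 other stem cell genes tested over all kept cells, 15 were lower and 5 higher in the Mll3/4-labelled library. Over all genes 19.5% were lower and 19.8% higher, so the 5 higher were near that share. The median log2 ratio of the 27 genes was -2.31 against -5.40 for the members. Hlf was at 33.1 CPM in control and 1.44 CPM there, and Mecom at 9.96 and 0.502 CPM. Ly6a, which encodes Sca1, went the other way, at 7.85 and 28.7 CPM, and Cdkn1c, Hoxa9, Erg and Ctnnal1 also passed higher. In the 9 HSC/MPP-like cells Hlf was at 305.4 CPM, against 244 CPM in control. Hlf is among the markers that named this class, so its level there is partly set by how the cells were chosen.

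Genes beside the members were read for comparison. Tal1, a stem cell and erythroid transcription factor 16.95 kb from Pdzk1ip1, was at 68.5 CPM in control against 0.785 CPM in the Mll3/4-labelled library. Nrgn, 6.17 kb from Esam, was at 76.4 and 1.8 CPM in those libraries. Robo3, 0.554 kb from Robo4, was at 1.8 and 0.0515 CPM. These are levels over all kept cells. In the 9 HSC/MPP-like cells of the Mll3/4-labelled library Tal1 was at 73.7 CPM, against 51.0 in control, and Nrgn at 116, against 175. In its 6 megakaryocyte-like cells Tal1 was at 87.6 CPM, against 91.8, and Nrgn at 234, against 438. Robo3 had 1 and 0 UMIs in the 2 groups. Nrgn was also lower over all kept cells of the Mll3-labelled library, at 35.6 CPM. Within the HSC/MPP-like and megakaryocyte-like cells of that library its log2 ratios were -1.02 and -1.08. Esam itself had ratios of 0.13 and -0.54 there. Over all kept cells of the Mll3/4-labelled library, Edem2 beside Procr, Mysm1 beside Tek, Msantd2 beside Esam and Nr2c2 beside Fgd5 lay between -0.74 and 0.59. Ift74, on the other side of Tek, was at 0.90, and Olr1 beside Clec1a at -5.28. The remaining neighbours lay between -0.55 and 0.33.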

How the data were processed

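The authors deposited raw UMI counts per gene and antibody for each cell barcode, made with Cell Ranger 6.1.2 on mm10, per the submitters' processing notes; settings for calling cells are not given in the sources used here. They cover 32285 genes, 13 surface antibodies and 2 hashtags. Cells with at least 500 genes, 1000 UMIs and at most 10% mitochondrial UMIs were kept, and the highest Scrublet scores (scanpy 1.11.5) were removed at 0.8% per 1000 barcodes, or 5.29% to 8.01% of cells; doublets may remain. Kept cells were clustered together (2000 variable genes, 30 components, 15 neighbours, Leiden resolution 1) without the 7 members, Xist, Y-linked and mitochondrial genes. Classes were named from fixed markers, so rebuilt names may differ from those of the study. Counts were summed over cells and given as CPM with exact Poisson intervals. Ratios have exact conditional binomial intervals, and shares have exact Clopper-Pearson intervals in the tables. UMIs are counted molecules; intervals and limits at 0 UMIs (3 counts) cover counting error only. Each 3′ count is 1 molecule and was not scaled by gene length; levels are compared between groups for 1 gene. A difference was called at 2-fold with 20 counts in either library. The call procedure was tested on simulated data. Antibody gates were crossing points of a 2-component mixture in control, at 124 counts for CD117, 32.6 for Sca1, 13.8 for CD150 and 377 for CD48. They were applied to the raw antibody counts of every library, without scaling for antibody depth, which differed between libraries. The CD201 crossing point, at 0.00862 counts, was not used. Free RNA was not corrected. Of the genes named beside the members, partners, other stem cell genes and neighbours were listed, and the 3 most like genes per member were taken by correlation; those of Esam are not reported here. The members, lists and comparisons were chosen with earlier results of these data known. Alternatives used edgeR 4.0.16 (TMM) and DESeq2 1.42.0 (median of ratios) only for scaling, other minimum counts, cell filters, thinning to 2000 UMIs, no doublet removal and other clusterings.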

Additional observations from a re-analysis of the deposited data

How the results depend on the processing

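No paired analysis was possible because each group has 1 library. Of 362 recomputed log2 ratios of single members, 328 stayed within the counting interval of the reported value, 34 did not, and none that had been called changed sign. Counts of called members in the Mll3-labelled library, over all kept cells and in HSC/MPP-like cells, were 0 under every alternative run, and those in the Mll3/4-labelled library at 5 to 7 lower and 0 higher. In the Mll4-labelled library over all kept cells, a minimum of 100 counts left 1 member lower, because fewer members were tested, and thinning to 2000 UMIs left 0 higher. The stricter cell filter left 2 lower there, without Fgd5. Its HSC/MPP-like cells depended most on the choice of cells and depth. There the count of lower members was 1 with a minimum of 100 counts, 2 with the stricter cell filter, 0 when thinned, 1 at resolution 0.5 and 2 with clustering seed 1. With cell groups chosen after the data had been seen, it was 0 in the Mecom cluster alone and 1 in the surface gate. The count of higher members was 1 with the stricter filter, when thinned, at resolution 0.5 and with seed 1, and 2 in the Mecom cluster alone. The mean CD201 count of HSC/MPP-like cells over that of other cells was 5.73 in control, 2.98 in the Mll3-, 1.57 in the Mll4- and 3.39 in the Mll3/4-labelled library. As a share of surface antibody counts it was 5.41, 2.75, 1.40 and 1.29. With no doublet removal it was 4.20, 2.49, 1.49 and 2.74, and by surface gate 6.83, 4.28, 3.74 and 3.83. Apart from the named fewer tests, the cause of these changes was not tested. Depth limits the Mll4-labelled stem cell groups, where several members had under 10 UMIs.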
